A study of Phalaenopsis amabilis with 15 samples.

Results

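The glutathione S-transferase (GST) family was followed by RNA sequencing in young leaves of the moth orchid Phalaenopsis amabilis, at the start of an experiment on day length and after 20 or 40 days of it. Members were the genes whose best Swiss-Prot match, or other description where there was no match, named a glutathione S-transferase or a glutathione transferase. This gave 35 of the 21144 genes in the deposited table, and 26 of them had enough counts to be tested. The 35 comprised 7 genes of the phi class, 21 of tau, 2 of theta, 1 of zeta, 2 dehydroascorbate reductases (DHAR), 1 of the TCHQD type and 1 microsomal enzyme.

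Each of 5 groups had 3 libraries, and each library pooled the uppermost leaves of 3 plants out of 120 in the experiment. The control was sampled on day 0 from plants raised with 12 h of daily light and day and night temperatures of 28 and 25 °C. From then on every plant was cooled to 25 and 18 °C and given either 16 h of light, the long photoperiod (LD), or 8 h, the short one (SD). Leaves taken on day 20 and day 40 gave the groups LD_20d, SD_20d, LD_40d and SD_40d. The labels name no mutant, transgene or chemical in any group, and the age of the plants and the hour of harvest are not given in the sources used here. A treated group therefore differed from the control in temperature, in day length and in time at once, and these cannot be told apart, whereas SD and LD of the same day shared temperature and time and differed in hours of light, and so in total daily light. Any difference in the time from lights-on to harvest cannot be told apart from day length. The table lists genes of P. equestris, a related species, so reads of one species were counted on gene models of another.

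GSTs join the tripeptide glutathione to reactive compounds, and the products are carried into the vacuole by ABC transporters of the C family. Phi and tau are the large plant classes, known for herbicide detoxification and for induction by stress, and some phi enzymes carry flavonoids instead. Theta and zeta enzymes are shared with animals, DHAR enzymes use glutathione to recycle ascorbate, and microsomal GSTs are membrane proteins of another fold. Genes are named below by their closest Swiss-Prot protein, which in most cases comes from Arabidopsis, rice, maize or tobacco, and this match does not show that the orchid protein has the same role.

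Library totals ran from 11246777 to 14637388 counts. Levels are given in CPM, the count of a gene scaled to the library's total by TMM. The floor of 3 counts in the pooled total of all 15 libraries, without TMM, stood at 0.0152 CPM. It does not apply to a single library, where 3 counts are a higher level: those of the tau gene LOC110037881 in SD_40d replicate 3 made 0.221 CPM. The sum of 15 leaf mesophyll markers, the small Rubisco subunit and chlorophyll-binding proteins, was 49494 to 63658 CPM in the control and 9254 to 24583 CPM in the treated libraries. It was thus high in every library, but lower in all treated libraries than in any control. Against the control 13 (LD_20d), 15 (SD_20d), 12 (LD_40d) and 13 (SD_40d) of the markers fell and 0 rose, beside falls in 12.6%, 17.9%, 13.6% and 19.5% of all genes. The part of this shift in the GST values was not tested. On the first principal component of all genes, which held 44.6% of the variance, SD_40d replicate 1 lay at -16.9 and replicates 2 and 3 at -77.6 and -89.3. Control replicate 2 also stood apart, at 14.5 against -19.6 and -22.1. Several results that rest on either library are given with and without it. In whole leaves, fewer cells of a type and less RNA per cell cannot be told apart.

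The highest levels per gene length belonged to a few members outside tau. On the scale of CPM per kilobase of gene length, averaged over the 15 libraries, a theta gene matched to GSTT1 (LOC110039277) led at 188. The cytosolic-type DHAR1 gene (LOC110024161) followed at 138 and the phi gene GSTF1 (LOC110023157) at 137, a difference within the spread of their libraries. Next stood the chloroplast-type DHAR2 gene (LOC110027478) at 103, the phi gene GSTF12 (LOC110020435) at 81.1, the phi gene GST3 (LOC110028345) at 69.9, a phi gene matched to GSTF10 (LOC110038862) at 63.7 and the second GSTT1 gene (LOC110023848) at 55.1. The best-read tau gene, GSTU8 (LOC110037406), reached 21.6, the zeta gene (LOC110027412) 19.0 and the TCHQD gene (LOC110029906) 13.2.

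Tau held most of the genes and few of the reads. Its 21 genes took 5.17% of the family's counts, against 39.5% for the 7 phi genes, 22.8% for theta and 23.8% for DHAR. All 9 members that were not tested were tau genes, with totals of 0 to 62 counts over the 15 libraries. No read at all was counted on LOC110034749, matched to the auxin-regulated parA of tobacco, or on LOC110037070, matched to rice GSTU1.

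**Figure D1:**
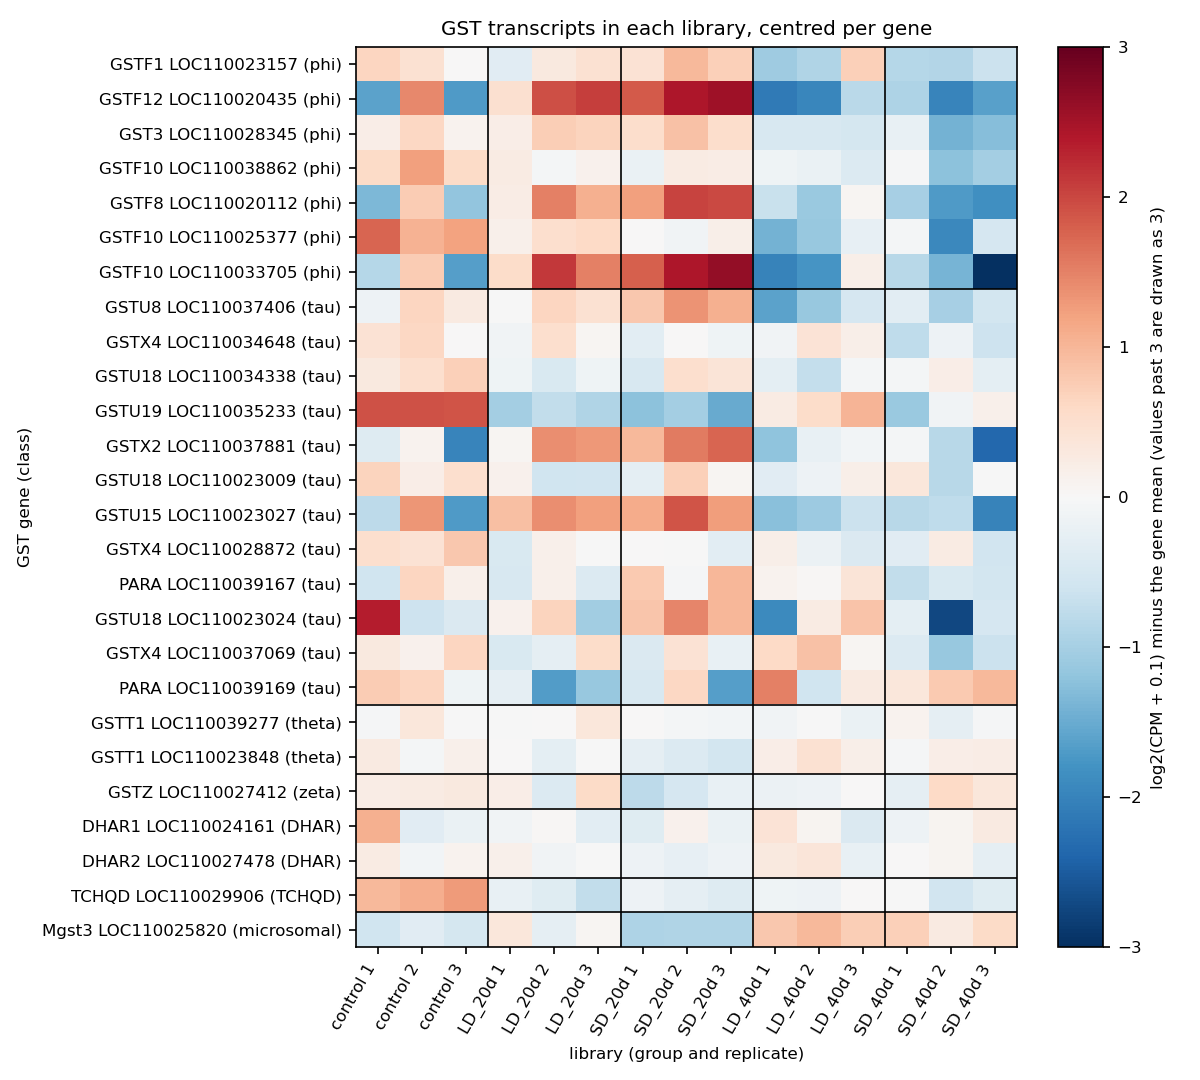
Each row is one of the 26 tested GST genes, ordered by class, and each column is one of the 15 libraries. Colour gives log2(CPM + 0.1) minus the gene's mean over the libraries, limited to 3 either way. The phi genes GSTF12 and GSTF8 have their highest group mean in SD_20d, where single libraries overlap with those of LD_20d.

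The mean summed level of the phi class was highest after 20 days in short days and lowest after 40 days in short days. The summed phi level, in CPM per kilobase (mean ± SD, n = 3), was 476 ± 127 in control leaves. At 20 days it was 513 ± 137 (LD_20d) and 689 ± 125 (SD_20d), and at 40 days 249 ± 96.6 (LD_40d) and 183 ± 49.4 (SD_40d). Neither 40-day group reached above 361, and the lowest SD_20d library stood at 546. Other groups overlapped: the control reached 611 and LD_20d 600, and SD_40d reached 237 where LD_40d began at 192. Single phi genes differed too, as LOC110025377 and LOC110038862 had their highest mean in the control. The tau sum was 87.5 ± 10.3 in the control, 68.7 ± 11.2 in LD_20d and 91.1 ± 18.7 in SD_20d, and 51.1 ± 8.80 in LD_40d and 45.2 ± 2.34 in SD_40d, so it too was lowest at 40 days but was not above the control in LD_20d. Group means of the theta sum lay between 223 and 260 and those of the DHAR sum between 210.3 and 276, with single DHAR libraries from 186 to 400.2. These sums are descriptions and were not tested.

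**Figure D2:**
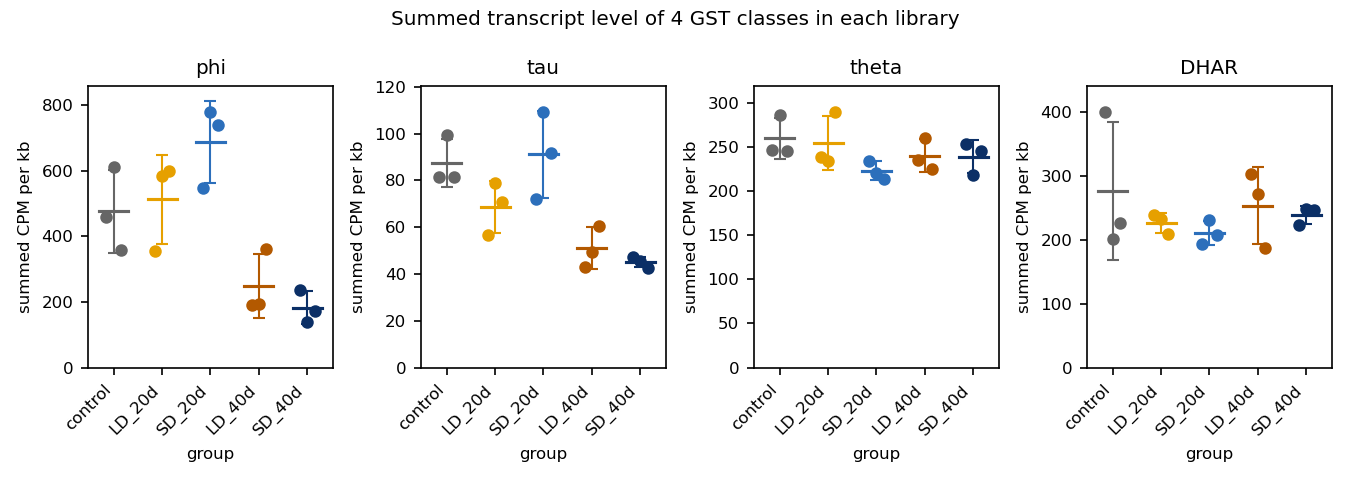
Each panel shows the summed level of a GST class, in CPM per kilobase, with a point for each library. Lines mark the group mean with its SD (n = 3). The phi panel falls from 689 in SD_20d to 183 in SD_40d, and the DHAR panel has its widest spread in the control, from 202 to 400.2.

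Between 20 and 40 days in short days, 4 members rose and 10 fell by edgeR's quasi-likelihood test (adjusted p under 0.05), together 53.8% of the tested members beside 40.7% of all genes tested, of which 20.1% rose and 20.7% fell. Of the 7 phi genes 6 fell, as did 4 of the 12 tested tau genes, and the median log2 difference was -0.51 over the members and 0.00 over all genes. Without SD_40d replicate 1 the remaining phi gene, LOC110025377, was also called as a fall (-1.07, adjusted p = 0.0403, edgeR). That fit called 14 members and 8174 genes, against 6801 genes with every library. Under long days the same interval brought 2 rises and 3 falls, or 19.2% of members beside 5.16% of all genes (2.17% up and 2.99% down). None of those 5 long-day calls held throughout when single libraries were left out: 0 members were called without LD_20d replicate 2, LD_20d replicate 3 or LD_40d replicate 1, and 1 without LD_40d replicate 2. Over all genes those fits called 2, 16, 1 and 325 genes, against 861 with every library. The test of whether the course over time differed between photoperiods called 0 members and 0% of all genes by edgeR. At an unadjusted p under 0.05 it took in 5 members and 1832 genes, and DESeq2 called 0 members and 32 genes. Without SD_40d replicate 1 it called 2 members, the zeta gene and GST3, beside 1108 of the 16700 genes.

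GSTF12, whose Arabidopsis counterpart TT19 is needed for anthocyanin to accumulate in the vacuole, had the widest swing among the abundant members. Its level was 158, 238 and 258 CPM in SD_20d and 61.6, 169 and 187 CPM in LD_20d. It was 10.05, 11.3 and 25.0 CPM in LD_40d and 23.0, 11.1 and 14.2 CPM in SD_40d. In the control it was 14.5, 120.4 and 13.6 CPM. Every 20-day library thus exceeded every 40-day library, and control replicate 2 lay 8.56 times above the mean of the other 2 controls. The fall from SD_20d to SD_40d was -3.75 ± 0.78 (log2 ± SE, adjusted p = 0.00272, edgeR) and remained called in every alternative run. From LD_20d to LD_40d it was -3.16 ± 0.76 (adjusted p = 0.0407, edgeR), which reached an adjusted p of 0.158 when libraries were left out in turn. That call ended without LD_20d replicate 2 or 3, without LD_40d replicate 1 or 2, and with the replicate number added to the model as a block.

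Against the control, GSTF12 rose in SD_20d by 2.14 ± 0.72 (adjusted p = 0.0347, edgeR). Without control replicate 2 the rise was 3.92 (adjusted p = 4.9e-04, edgeR). The call was lost without control replicate 1 or 3 and without SD_20d replicate 2 or 3, with an adjusted p of up to 0.109. The SD_20d libraries did not overlap with the controls, and the LD_20d libraries did.

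GSTF8 and LOC110033705, a locus matched to GSTF10, likewise had their highest mean in SD_20d, and had their lowest in SD_40d. In Arabidopsis GSTF8 is a stress-inducible enzyme of the chloroplast. For both genes the SD and LD libraries overlapped on day 20 and on day 40. Neither was called between SD and LD at 20 days (adjusted p = 0.470 for GSTF8 and 0.578 for LOC110033705, edgeR). The same held at 40 days (adjusted p = 0.407 and 0.698, edgeR). GSTF8 (LOC110020112) stood at 65.1, 113 and 109.7 CPM in SD_20d and at 32.6, 78.5 and 57.8 CPM in LD_20d. It stood at 13.8, 8.41 and 7.67 CPM in SD_40d, at 17.4, 12.8 and 28.8 CPM in LD_40d and at 10.8, 47.4 and 12.1 CPM in the control. SD_20d was above all control and all 40-day libraries. GSTF8 rose by 2.03 ± 0.53 in SD_20d against the control (adjusted p = 0.00943, edgeR) and fell by 3.26 ± 0.56 from SD_20d to SD_40d (adjusted p = 0.00105, edgeR), and both calls remained in every alternative, the first at 3.04 without control replicate 2.

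LOC110033705 read 26.6, 41.5 and 47.8 CPM in SD_20d and 4.23, 2.84 and 0.590 CPM in SD_40d, with controls at 4.16, 13.0 and 2.36 CPM. Its lowest value, 0.590 CPM, rested on 8 counts. Under long days it read 11.2, 33.5 and 21.7 CPM, then 1.83, 2.15 and 8.59 CPM. The short-day groups were far apart, and the highest control lay below the lowest SD_20d library. The rise against the control was 2.57 ± 0.72 (adjusted p = 0.0140, edgeR) and was lost without control replicate 1 or 3 (adjusted p up to 0.0579), while without control replicate 2 it was 3.53. The fall to SD_40d was -3.92 ± 0.78 (adjusted p = 0.00217, edgeR) and was -4.53 without SD_40d replicate 1. Its other description in the table is cylicin-1-like, a name of no GST, so its place in the family rests on the Swiss-Prot match alone.

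Markers of dividing tissue moved with these phi genes. The sum of 14 tested mitotic markers (of 17 found, with 1 KNOLLE locus at 0 counts in every library) was 108 to 148 CPM in control leaves. It was 425 to 592 CPM for SD_20d and 144 to 450.4 CPM for LD_20d, and later 139.7 to 149.6 CPM for LD_40d and 133 to 195 CPM for SD_40d. Of the 14 markers, 11 rose in SD_20d against the control and 10 fell from SD_20d to SD_40d, with 1 rise, TPX2. Of all genes, 17.2% rose in the first of these comparisons, and 20.7% fell and 20.1% rose in the second. Under long days 8 of the 14 rose in LD_20d against the control, beside 11.4% of all genes, and no phi gene was called there. From LD_20d to LD_40d 5 of the 14 fell, beside 2.99% of all genes and 2 of the 7 phi genes. Control replicate 2, the highest control for GSTF12 and GSTF8, was also the highest control for these markers, and LD_20d replicate 1 was the lowest of its group for both. The order did not hold in other libraries: in SD_40d, replicate 1 had the lowest marker sum (133 CPM) and the highest GSTF12 and GSTF8, and in LD_20d, replicate 3 had less marker signal than replicate 2 (200.2 against 450.4 CPM) and more GSTF12. The part of dividing cells in the phi values was not tested.

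**Figure D3:**
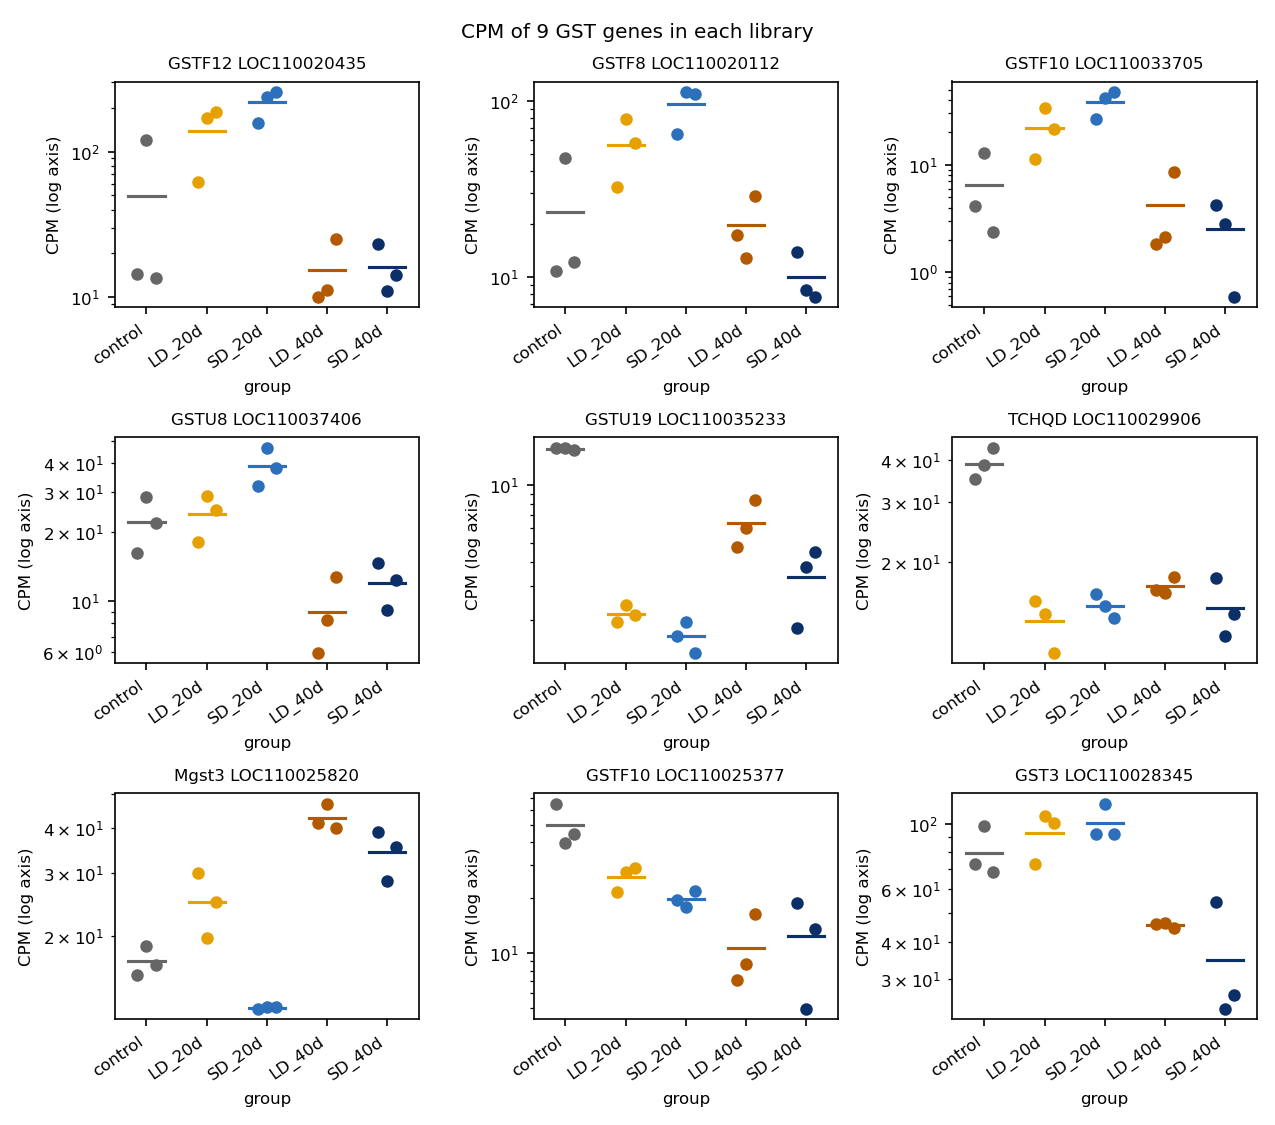
Points show CPM in each of the 15 libraries on a log axis for 9 GST genes, by group, with a line at the group mean. GSTF12 spans 158 to 258 CPM in SD_20d and 11.1 to 23.0 CPM in SD_40d, and the microsomal gene runs the other way.

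The other 4 phi genes each fell against the control in at least 1 group at 40 days, and none of them was called as a rise at 20 days. The GSTF10 gene LOC110025377, whose Arabidopsis counterpart was first isolated as an early dehydration-response gene, read 64.9, 39.4 and 44.4 CPM in the control. It read 21.4, 27.4 and 29.0 CPM in LD_20d, 19.5, 17.8 and 21.6 CPM in SD_20d, 7.08, 8.69 and 16.2 CPM in LD_40d and 18.6, 4.94 and 13.4 CPM in SD_40d. All 12 treated libraries were below the lowest control. The edgeR log2 differences from the control were -1.34 ± 0.38 in SD_20d (adjusted p = 0.0152), -2.21 ± 0.39 in LD_40d (adjusted p = 0.00129) and -1.998 ± 0.39 in SD_40d (adjusted p = 0.00164). The SD_20d call was lost without control replicate 1 or SD_20d replicate 2 (adjusted p up to 0.0665), and the 40-day calls remained throughout.

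The second GSTF10 gene, LOC110038862, read 79.7, 125 and 78.8 CPM in the control, 49.0, 46.0 and 40.1 CPM in LD_40d and 51.9, 22.8 and 26.3 CPM in SD_40d. Both 40-day groups lay below every control. It fell by 1.07 ± 0.27 in LD_40d (adjusted p = 0.0102, edgeR) and by 1.49 ± 0.27 in SD_40d (adjusted p = 0.00112, edgeR). Its fall in SD_20d, -0.72 ± 0.27, had an adjusted p of 0.0495 by edgeR and was lost in 8 of 10 alternatives, among them the removal of any 1 of the 6 libraries. Its fall from SD_20d to SD_40d, -0.76 ± 0.27 (adjusted p = 0.0375, edgeR), was lost without replicate 2 or 3 of either group (adjusted p up to 0.148).

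GST3, matched to a maize enzyme known from herbicide detoxification, read 92.0, 117 and 92.4 CPM in SD_20d and 54.3, 23.7 and 26.3 CPM in SD_40d, with controls at 73.0, 98.0 and 68.4 CPM. Under long days it read 72.9, 106 and 101 CPM at 20 days and 45.8, 46.0 and 44.6 CPM at 40 days. Its SD_40d libraries were all lower than those of SD_20d and the control, and replicate 1 was the highest of them. The fall from SD_20d was -1.53 ± 0.27 (adjusted p = 0.00113, edgeR) and that from the control -1.20 ± 0.27 (adjusted p = 0.00359, edgeR), in every alternative. The LD_40d falls of GST3, -0.81 ± 0.26 against the control (adjusted p = 0.0349, edgeR) and -1.03 ± 0.26 against LD_20d (adjusted p = 0.0443, edgeR), were each lost in 6 of 10 alternatives. For the first these took in control replicates 1 and 2 and any 1 of the LD_40d libraries, and for the second LD_20d replicates 2 and 3 and any 1 of the LD_40d libraries. Adding the replicate number to the model as a block also ended both calls.

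GSTF1, matched to a rice gene, read 164, 238 and 198 CPM in SD_20d and 66.3, 65.6 and 77.9 CPM in SD_40d, and fell by 1.52 ± 0.39 (adjusted p = 0.00783, edgeR). In LD_40d GSTF1 was split, with 58.1, 64.2 and 198 CPM, and the group was not called against the control unless replicate 3 was left out, which gave -1.38 (adjusted p = 0.00191, edgeR). Against the control the SD_40d fall of GSTF1, -1.18 ± 0.38 (adjusted p = 0.0269, edgeR), was lost without control replicate 1 or 2 or SD_40d replicate 2 or 3 (adjusted p up to 0.0834).

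SD_40d replicate 1, the highest library of its group for GST3 and for both GSTF10 genes LOC110025377 and LOC110038862, differed from the other 2 in heat shock markers too. The sum of 20 tested heat shock genes (of 24 found, 2 at 0 in every library) was 2315 CPM in it, 11297 CPM in replicate 2 and 7267 CPM in replicate 3, with 1984 to 3596 CPM in the other 4 groups. Vascular markers (6 tested of 8 found) summed to 591, 699 and 717 CPM in SD_40d replicates 1, 2 and 3, and to 416 to 608 CPM in the other groups. Replicate 1 thus lay within the range of the other groups, and replicates 2 and 3 lay above it. Beside 20.1% of all genes, 3 of the 6 rose from SD_20d to SD_40d. Their part in the phi falls was not tested.

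Among the tau genes, GSTU19 (LOC110035233) was highest in the control by a wide margin. Arabidopsis GSTU19 is an abundant tau enzyme with high activity on model substrates. Its controls read 15.6, 15.5 and 15.2 CPM, LD_20d 1.95, 2.39 and 2.13 CPM, and SD_20d 1.66, 1.96 and 1.35 CPM. At 40 days it read 4.80, 6.02 and 8.32 CPM in LD_40d and 1.82, 3.75 and 4.50 CPM in SD_40d. No treated library reached the controls, and the 20-day libraries under long days lay below those at 40 days. The edgeR log2 differences from the control were -2.83 ± 0.30 in LD_20d (adjusted p = 3.5e-05), -3.21 ± 0.31 in SD_20d (adjusted p = 1.6e-05), -1.27 ± 0.28 in LD_40d (adjusted p = 0.00507) and -2.20 ± 0.29 in SD_40d (adjusted p = 1.4e-04). All 4 calls remained in every alternative. The later rises, 1.56 ± 0.30 under long days (adjusted p = 0.0260, edgeR) and 1.02 ± 0.31 under short days (adjusted p = 0.0203, edgeR), were less secure. The first was lost without LD_20d replicate 2 or 3 or LD_40d replicate 1 (adjusted p up to 0.120), and the second without SD_20d replicate 3 or SD_40d replicate 2 or 3 (adjusted p up to 0.109).

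GSTU8 (LOC110037406) had its highest mean in SD_20d, as GSTF12 and GSTF8 had. It read 32.0, 46.8 and 38.4 CPM in SD_20d, 14.7, 9.15 and 12.3 CPM in SD_40d, 18.1, 28.7 and 25.1 CPM in LD_20d, 5.94, 8.26 and 12.8 CPM in LD_40d and 16.3, 28.5 and 22.0 CPM in the control. SD_20d exceeded every other group and both 40-day groups were below the control. The difference between SD_20d and LD_20d, 0.70 ± 0.28, was not called (adjusted p = 0.224, edgeR). The fall from SD_20d to SD_40d was -1.69 ± 0.29 (adjusted p = 0.00105, edgeR) and that from the control to LD_40d -1.31 ± 0.29 (adjusted p = 0.00547, edgeR), and both remained throughout. Its rise in SD_20d against the control (0.81 ± 0.28, adjusted p = 0.0396), its fall in SD_40d against the control (-0.88 ± 0.29, adjusted p = 0.0280) and its fall from LD_20d to LD_40d (-1.41 ± 0.29, adjusted p = 0.0299), all by edgeR, were each lost in 4 alternatives, with an adjusted p of up to 0.147. For the first these were control replicates 1 and 3 and SD_20d replicates 2 and 3, for the second control replicates 2 and 3 and SD_40d replicates 2 and 3, and for the third LD_20d replicates 2 and 3 and LD_40d replicates 1 and 2.

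Other, less abundant tau genes also fell between the short-day groups. The tobacco-like gene GSTX2 (LOC110037881) read 3.10, 4.73 and 5.41 CPM in SD_20d and 1.46, 0.823 and 0.221 CPM in SD_40d, without overlap. Its SD_40d values rested on 20, 9 and 3 counts. It fell by 2.39 ± 0.63 (adjusted p = 0.00901, edgeR), and the difference was -3.10 without SD_40d replicate 1. GSTX2 had risen by 2.09 ± 0.61 against the control in SD_20d (adjusted p = 0.0180, edgeR), a call lost without control replicate 3 or SD_20d replicate 3 (adjusted p up to 0.0659). GSTU15 (LOC110023027) fell by 2.70 ± 0.65 from SD_20d to SD_40d (adjusted p = 0.00585, edgeR), from 5.03 to 0.774 CPM in the mean. Its SD_40d libraries held 13, 11 and 5 counts. The parA gene LOC110039167 fell by 1.36 ± 0.42 (adjusted p = 0.0210, edgeR), a call lost in 5 alternatives (adjusted p up to 0.0898), without SD_20d replicate 1 or 3 and without any 1 of the SD_40d libraries. In SD_40d it had 7, 7 and 8 counts.

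Against the control, 3 other tau genes were called in 1 group each. The parC-like LOC110034648, related to an auxin-regulated tobacco gene, fell by 0.87 ± 0.23 in SD_40d (adjusted p = 0.0102, edgeR), and this remained throughout. GSTU18 gene LOC110034338 fell by 0.85 ± 0.27 in LD_40d (adjusted p = 0.0324, edgeR) and was lost without control replicate 2 or 3 or LD_40d replicate 1 or 2 (adjusted p up to 0.124). LOC110028872, also parC-like, fell by 0.82 ± 0.30 in SD_40d (adjusted p = 0.0439, edgeR) and was lost in 7 of 10 alternatives, among them without any 1 of the 3 control libraries or SD_40d replicate 1 or 3.

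Several tau genes lay side by side. A group of 5 formed an unbroken run on scaffold NW_018164646.1 of the files' P. equestris assembly, whose build name is not given in the sources used here, from 163031 to 208737. In order they were GSTU15 LOC110023027 and 4 genes matched to GSTU18, of which LOC110023024 and LOC110023009 were tested and LOC110023026 and LOC110023025 had totals of 2 and 32 counts. Levels along the run were unequal: over the 15 libraries GSTU15 averaged 3.00 CPM per kilobase, LOC110023024 0.856 and LOC110023009 4.01. Of these 5, GSTU15 was called, in 1 of the 9 comparisons. Without control replicate 2, GSTU15 was also called as a rise against the control in SD_20d (2.75, adjusted p = 0.00138, edgeR) and in LD_20d (2.49, adjusted p = 0.00352, edgeR). A second run of 3 parA genes, LOC110039163, LOC110039167 and LOC110039169, stood on scaffold NW_018253466.1 from 346733 to 359547, and 1 of the 3, LOC110039167, was called. Neighbouring copies can share reads, and how reads with several matches were counted is not given in the sources used here, so the split between them is uncertain.

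The theta, DHAR and zeta genes had few calls. Of the theta pair, LOC110039277 was called in none of the 9 comparisons, with 165 to 249.6 CPM over the 15 libraries. The other, LOC110023848, read 43.1, 39.1 and 35.5 CPM in SD_20d against 62.6, 49.8 and 57.9 CPM in the control and 51.0, 59.5 and 61.1 CPM in SD_40d, so SD_20d lay below both. It fell by 0.53 ± 0.13 in SD_20d against the control (adjusted p = 0.00634, edgeR) and rose by 0.54 ± 0.13 from SD_20d to SD_40d (adjusted p = 0.00526, edgeR), in every alternative.

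Neither DHAR gene was called in any comparison. DHAR1 read 271, 102 and 113 CPM in the control, and its 12 treated libraries ran from 96.1 to 172 CPM, so control replicate 1 alone set the high control mean. DHAR2 ran from 107 to 165 CPM over the 15 libraries. The zeta gene, whose relatives are maleylacetoacetate isomerases of tyrosine breakdown, read 56.0, 57.2 and 58.6 CPM in the control, 27.8, 34.0 and 41.3 CPM in SD_20d and 40.2, 73.3 and 61.3 CPM in SD_40d. SD_20d lay below the control and overlapped with SD_40d. Zeta fell by 0.74 ± 0.24 in SD_20d (adjusted p = 0.0285, edgeR) and rose by 0.76 ± 0.24 to SD_40d (adjusted p = 0.0221, edgeR). The fall was lost without control replicate 1 or 3 or SD_20d replicate 1 or 2 (adjusted p up to 0.105), and the rise without SD_20d replicate 1 or 2 or SD_40d replicate 2 or 3 (adjusted p up to 0.108).

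The TCHQD gene, named for its likeness to a bacterial dehalogenase, was highest in the control and level across the treated groups. Controls read 35.1, 38.6 and 43.5 CPM, LD_20d 15.3, 14.1 and 10.8 CPM, SD_20d 16.1, 14.8 and 13.7 CPM, LD_40d 16.5, 16.3 and 18.1 CPM and SD_40d 17.9, 12.1 and 14.0 CPM. Every control lay far above the highest treated library. The edgeR differences from the control were -1.54 ± 0.16 (adjusted p = 3.3e-05), -1.39 ± 0.16 (adjusted p = 6.2e-05), -1.20 ± 0.16 (adjusted p = 1.9e-04) and -1.41 ± 0.16 (adjusted p = 5.4e-05) in the same order of groups, and each remained in every alternative. No difference between treated groups was called.

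The microsomal gene (LOC110025820), matched to mouse MGST3, ran opposite to GSTF12 and GSTF8 between the short-day groups and was the only member called between photoperiods. It read 15.6, 18.8 and 16.6 CPM in the control, 30.0, 19.7 and 24.9 CPM in LD_20d and 12.5, 12.6 and 12.7 CPM in SD_20d. At 40 days it read 41.4, 46.8 and 40.0 CPM in LD_40d and 39.2, 28.5 and 35.5 CPM in SD_40d. SD_20d was lower than all other libraries and both 40-day groups were above every control. From SD_20d to SD_40d it rose by 1.45 ± 0.16 (adjusted p = 6.5e-04, edgeR). Against the control it rose by 1.33 ± 0.16 in LD_40d (adjusted p = 6.5e-05, edgeR) and by 1.02 ± 0.16 in SD_40d (adjusted p = 3.4e-04, edgeR). These 3 calls remained in every alternative.

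At 20 days the microsomal gene was lower in SD than in LD by a log2 difference of -0.98 ± 0.16 (adjusted p = 0.0143, edgeR). It was the 1 called member of 26, or 3.85%, beside 0.862% of all genes (0.168% up and 0.695% down). The call was lost without LD_20d replicate 1 or 3 or SD_20d replicate 2 or 3, with an adjusted p of up to 0.0944. In these 4 fits the difference was -0.82, -0.98, -0.98 and -0.98, and all genes called numbered 24, 27, 14 and 5, against 144 with every library. Without LD_20d replicate 2 the zeta gene was called beside it (-0.88), among 885 genes. Its other 20-day calls were also unsteady. The rise in LD_20d against the control was 0.55 ± 0.16 (adjusted p = 0.0207, edgeR) and was lost without control replicate 1 or 3 or LD_20d replicate 1 or 3 (adjusted p up to 0.0935). The fall in SD_20d was -0.43 ± 0.16 (adjusted p = 0.0491, edgeR) and was lost in 8 of 10 alternatives, among them without any 1 of the 6 libraries (adjusted p up to 0.119). The rise from LD_20d to LD_40d was 0.78 ± 0.15 (adjusted p = 0.0266, edgeR) and was lost without LD_20d replicate 2 or 3 or LD_40d replicate 1 or 2 (adjusted p up to 0.125).

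At 40 days no member was called between SD and LD by edgeR, beside 0.461% of all genes (0.162% up and 0.299% down). At an unadjusted p under 0.05 there were 3 members and 2585 genes, and DESeq2 called 0 members and 614 genes. The smallest adjusted p of a member was 0.160. Without SD_40d replicate 1 there were 2 calls, GST3 at -0.86 and LOC110038862 at -0.87, beside 2037 of the 16700 genes. Over the members the median log2 difference between SD and LD was 0.13 at 20 days and -0.21 at 40 days, beside 0.02 and -0.02 over all genes.

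Against the control, calls in SD_20d numbered 5 rises and 7 falls, or 46.2% of members beside 35.1% of all genes (17.2% up and 17.9% down). There were 5 calls without control replicate 1 or 3, 6 without SD_20d replicate 2 and 7 without SD_20d replicate 3, while all genes called numbered 4304 to 4647 in these fits against 5864 with every library. LD_20d had 1 rise and 2 falls, or 11.5% of members beside 24% of all genes (11.4% up and 12.6% down), and 7 calls both by DESeq2 and without control replicate 2, which in the latter case added GSTF12 (3.29), GSTF8, GSTU15 and LOC110033705 as rises. LD_40d had 1 rise and 7 falls (30.8% beside 27.5% of all genes, with 13.9% up and 13.6% down). SD_40d had 1 rise and 9 falls (38.5% beside 38.3%, with 18.8% up and 19.5% down). Shares called in either direction at 40 days were thus close to those of all genes. By direction they were not: the called members were mostly falls, while all genes had about as many rises as falls. In SD_40d the median log2 difference was -0.88 over the members and -0.05 over all genes. These comparisons share the 3 control libraries.

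**Figure D4:**
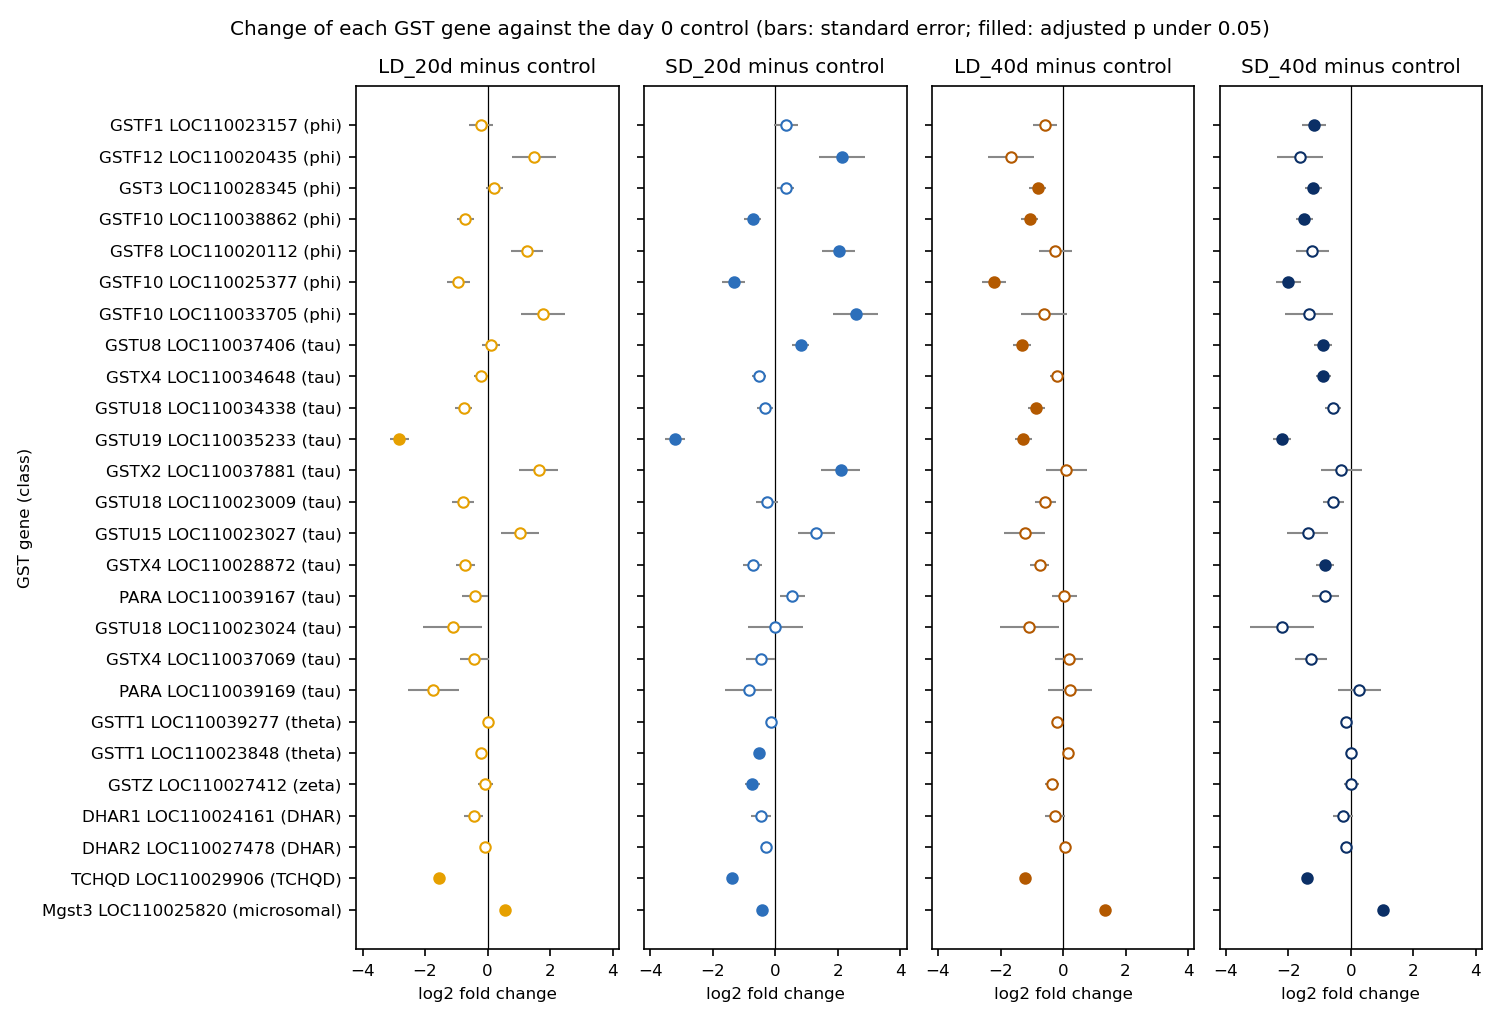
Points give the edgeR log2 difference of each tested GST gene from the control in the 4 treated groups, with bars of 1 SE, and filled points are called at an adjusted p under 0.05. GSTU19 and TCHQD lie left of 0 in all 4 panels, and GSTF12, GSTF8 and LOC110033705 lie right of 0 in SD_20d, with filled points.

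Genes that work beside the GSTs were counted in the same fit. The 20 ABC transporters of the C family, vacuolar pumps for glutathione conjugates among them, had 6 rises in LD_20d and 8 in SD_20d against the control, and then 4 for LD_40d as for SD_40d, with 4 falls, all in SD_40d. The shares of all genes that rose were 11.4%, 17.2%, 13.9% and 18.8% in that order, and 19.5% fell in SD_40d, so the ABCC counts there were close to those of all genes. From SD_20d to SD_40d, 1 of them rose and 10 fell, beside 20.1% and 20.7% of all genes, with a median log2 difference of -0.95 beside 0.00 over all genes. ABCC13 (LOC110029169) rose in each treated group, by 1.03 ± 0.10 in LD_20d and up to 1.62 ± 0.11 in SD_40d (adjusted p = 4.7e-07, edgeR). ABCC5 (LOC110033880) fell by 2.72 ± 0.42 from SD_20d to SD_40d (adjusted p = 7.8e-04, edgeR).

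Genes for the supply and recycling of glutathione were counted likewise. Of 11 tested genes for glutathione synthesis and breakdown, 1 rose and 3 fell in LD_20d, 2 rose and 4 fell in SD_20d, 1 rose and 3 fell in LD_40d and 1 rose and 4 fell in SD_40d against the control, beside falls in 12.6%, 17.9%, 13.6% and 19.5% of all genes. Glutamate-cysteine ligase (LOC110026083), the first enzyme of glutathione synthesis, fell by 0.48 ± 0.15 from SD_20d to SD_40d (adjusted p = 0.0182, edgeR). In the redox cycle of 18 tested reductases and peroxidases, 4 rose and 4 fell in SD_20d against the control, near the shares of all genes (17.2% and 17.9%), and 6 rose and 3 fell from SD_20d to SD_40d (20.1% and 20.7% of all genes). Cytosolic glutathione reductase (LOC110027635), which restores reduced glutathione, rose by 0.61 ± 0.11 in LD_20d (adjusted p = 0.00202, edgeR) and fell by 0.68 ± 0.11 from SD_20d to SD_40d (adjusted p = 9.6e-04, edgeR).

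Of 17 tested glutaredoxins, which reduce disulfides with glutathione, 3 rose and 4 fell in SD_20d against the control. These counts were near the shares of all genes (17.2% up and 17.9% down). GRXS12 (LOC110033539) fell by 1.19 ± 0.13 (adjusted p = 3.0e-05, edgeR). The 7 glyoxalase and formaldehyde genes, which clear aldehydes with glutathione, had 4 rises and 0 falls from SD_20d to SD_40d. Of all genes, 20.1% rose and 20.7% fell there. A lactoylglutathione lyase (LOC110018073) rose by 0.62 ± 0.14 (adjusted p = 0.00337, edgeR). Of 12 sulfur assimilation genes, which supply cysteine, 1 rose and 5 fell in SD_20d against the control, beside 17.2% and 17.9% of all genes. One of them, a mitochondrial-type serine acetyltransferase (LOC110031619), was the sole call between photoperiods in the glutathione lists, lower in SD_40d than in LD_40d by a log2 difference of -1.52 ± 0.24 (adjusted p = 0.0211, edgeR). Of 5 tested TGA factors, which bind promoters of some GSTs in Arabidopsis, 2 fell in SD_20d against the control, and of 6 tested oxylipin reductases 1 rose and 2 fell. The shares of all genes in that comparison were again 17.2% up and 17.9% down, and both lists are small.

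Anthocyanin genes were set beside GSTF12 after its values had been seen. Of 7 tested, 2 rose and 3 fell in SD_20d against the control, beside 17.2% and 17.9% of all genes. From SD_20d to SD_40d 1 rose and 1 fell, beside 20.1% and 20.7% of all genes. Leucoanthocyanidin dioxygenase (LOC110019740), a late step, fell by 1.98 ± 0.31 in SD_20d (adjusted p = 3.9e-04, edgeR), and a dihydroflavonol 4-reductase (LOC110022255) rose by 1.68 ± 0.18 (adjusted p = 3.0e-05, edgeR). The sum of the 7 genes ran from 834 to 1199 CPM in the control and from 572 to 771 CPM in LD_20d. It ran from 456 to 547 CPM in SD_20d, where the mean of GSTF12 was highest. At 40 days, where GSTF12 was low, it ran from 361 to 517 CPM in LD_40d and from 258 to 570 CPM in SD_40d. A link between GSTF12 and these genes was not tested.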

How the data were processed

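RNA was sequenced from leaf samples in 15 libraries. The authors deposited one table with whole-number read counts for each gene and with FPKM, which follow from the counts and gene length within 0.01 reads for every member, per the file headers and the values. Gene length and the start and end sites, other columns of the deposited table, served to scale and place genes. The submitters' processing notes name cutadapt 1.15, HISAT2 (version 2.0.5), HTSeq in version 0.9.1, and also DESeq (1.30.0), without further detail. The genome build, strand setting and treatment of reads with several matches are not given in the sources used here.

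The count test was the quasi-likelihood F test of edgeR 4.0.16 under R 4.3.3, with TMM scaling and the package's expression filter. A single model of the 15 libraries held 1 mean for each group. The filter kept 16700 genes, over which p-values were adjusted by Benjamini-Hochberg, with calls at an adjusted p under 0.05. The standard error is the log2 difference over the root of F. CPM are scaled by TMM, and per-length levels divide them by gene length. The 9 comparisons were SD against LD on each day, the 4 treated groups each with the control, day 40 with day 20 inside a photoperiod, and the interaction. Alternatives were size factors of the RLE type, no expression filter, a replicate block, DESeq2 1.42.0, and leaving out each library. Classes follow the Swiss-Prot names.

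Members and gene lists were chosen with earlier results of these data known, and list patterns and classes were corrected once the table was read. Genes named were called members in order of adjusted p, the highest members per length and of each class, neighbouring runs, and the smallest adjusted p in each list, with further genes chosen after their values were seen. Libraries with the same replicate number had correlations of -0.29 to 0.36 over 24 pairs, and in 0 of 8 comparisons were all pairs over 0.1, so the numbers were not taken to pair them. Replicates are called biological in the submitters' design. Counting floors cover counting error alone.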

Additional observations from a re-analysis of the deposited data

Results flagged for a closer look

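The microsomal gene LOC110025820 drew attention because its groups moved in opposite directions from the same control. It rose in LD_20d and fell in SD_20d, and the difference between these 2 groups was -0.98 on the log2 scale. It also rose in SD_40d, 1.45 above SD_20d. GSTU8 (LOC110037406) rose in SD_20d and fell in SD_40d against the control, with a difference of -1.69 between them. All 3 differences were called by edgeR. Of 10 alternatives, the SD_20d fall of the microsomal gene was lost in 8. Its LD_20d rise and the difference of -0.98 were lost in 4 each. Its SD_40d rise and the difference of 1.45 were kept in all. For GSTU8 the SD_20d rise and the SD_40d fall were lost in 4 each, and the difference of -1.69 was kept in all. The fits that leave out libraries are given beside the values above.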

How the results depend on the processing

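Of 53 calls in single members, 29 were kept in all 10 alternatives run on each and 24 were lost in at least 1, mostly by leaving out a library. RLE size factors changed no count of called members. With DESeq2 there were 7 calls in LD_20d against the control (3 by edgeR) and 9 from LD_20d to LD_40d (5 by edgeR). With the replicate block, calls from LD_20d to LD_40d numbered 3, and no other count moved by over 1.5 times. The block ended 6 single calls: GSTF12 from LD_20d to LD_40d (adjusted p = 0.0584), GST3 in the same comparison (0.0651) and in LD_40d against the control (0.0519), LOC110028872 in SD_40d (0.0533), and LOC110025820 (0.0639) and LOC110038862 (0.0695) in SD_20d, all by edgeR. It added 2 in SD_20d against the control, GSTU15 (1.53, adjusted p = 0.0468) and LOC110034648 (-0.51, adjusted p = 0.0350). With 1 library left out, calls ranged from 0 to 2 for SD against LD at 20 days, 0 to 2 at 40 days and 0 to 2 for the interaction. They ranged from 2 to 7 in LD_20d, 5 to 11 in SD_20d, 6 to 8 in LD_40d and 7 to 10 in SD_40d against the control, from 0 to 7 between the long-day groups and from 10 to 14 between the short-day groups. All genes called also moved in number in fits with a library left out. Such counts are given above for LD_20d against LD_40d, SD_20d against SD_40d and SD_20d against the control. The cause of the ranges was not tested. Matching either description gave the same 35 members. Tau genes with few counts limit what could be detected.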
